A study of Mus musculus with 42 samples.

Results

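Conventional CD4 T cells (Tconv) of the small bowel and of its draining lymph node were compared between TNFdARE mice and littermate WT mice, to find which RNA differences between the genotypes were shared by the 2 sites and which differed between them. The libraries were chosen by label: all 11 gut Tconv libraries of the 42 libraries in the series, with 3 from TNFdARE ileum, 3 from WT ileum, 2 from TNFdARE mesenteric node (mLN) and 3 from WT mesenteric node. Every animal also carried the DEREG transgene, in which Foxp3 control sequences placed on a bacterial artificial chromosome drive a GFP reporter, so the WT animals are WT DEREG mice and not plain wild type. CD4 T cells were sorted by flow cytometry on that reporter, and Tconv are the cells in which GFP was not seen, whatever the activity of the endogenous Foxp3 gene. Cells came from 3 independent experiments, A, B and C, and experiment A has no TNFdARE library of the mesenteric node. The labels give no age or sex, and do not say how many animals went into a library or whether the ileum and node libraries of a letter share animals. RNA was made into full-length cDNA with a SMART-Seq v4 protocol and sequenced as single reads, and the reads were counted per gene. Either of 2 amounts of input RNA was used, and which library had which is not stated.

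In TNFdARE mice a stretch rich in adenine and uridine is deleted from the Tnf gene. That element normally makes Tnf mRNA short-lived and poorly translated, and without it the mice overproduce TNF and develop inflammation of the terminal ileum and of the joints. TNF acts through the receptors TNFR1 and TNFR2 and switches on the NF-kB transcription factors. The mesenteric node is where naive CD4 T cells first meet antigen from the gut, after which effector cells change their homing receptors and enter the bowel wall, so the node is rich in naive cells and the ileum in effector and memory cells.

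The 11 libraries held 18710456 to 25916252 counts each, and between 17560 and 20875 genes had a count. Node library TNFdARE C had the most, against 17560 to 18431 in the other node libraries. Within a group, log2 CPM (counts divided by the library's total and scaled up) correlated across genes at 0.954 to 0.985 between libraries. Both Xist and Ddx3y were found in all 11 libraries, so RNA of both sexes was found in each. Summed CPM of 10 T cell genes lay at 6697 to 8716 in TNFdARE ileum and 7083 to 8475 in WT ileum, and at 8594 to 8687 in TNFdARE nodes and 8766 to 9212 in WT nodes. The 5 genes of the CD8 and NK list, mostly Cd8b1 and Klrb1c, summed to 18.66 to 23.23 CPM in TNFdARE ileum and 25.87 to 37.6 CPM in WT ileum, without overlap, and to 23.52 to 27.67 CPM in TNFdARE nodes and 21.84 to 28.65 CPM in WT nodes, with overlap, while Cd8a itself reached at most 0.481 CPM. The part of such cells in the results was not tested.

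Tnf itself, the gene that carries the deletion, was at 97.1, 80.7 and 87.4 CPM in TNFdARE ileum and 98, 83.5 and 66.7 CPM in WT ileum, where the genotypes overlapped and the difference did not pass the test (log2 fold change 0.1 ± 0.19, adjusted p = 0.87). In the mesenteric node it was at 55.2 and 52.4 CPM in TNFdARE nodes and 31.6, 26.3 and 16.6 CPM in WT nodes, and both TNFdARE libraries lay above all 3 WT libraries. There it rose 2.17-fold (log2 fold change 1.12 ± 0.22, adjusted p = 0.0205). The Tnf node call was lost without any one of mLN TNFdARE B, mLN WT B or mLN TNFdARE C (adjusted p = 0.064 to 0.126). A count per gene does not show whether the deleted stretch is present, and the difference between the sites did not pass (interaction -1.02 ± 0.29, adjusted p = 0.19), though it did with the experiment letter as a replicate block (adjusted p = 0.0271). Throughout, CPM of single genes are scaled with the TMM method of edgeR, values per library are listed in the order A, B, C (B, C for TNFdARE nodes), and a log2 fold change of TNFdARE over WT is followed by its standard error (SE). The interaction is the log2 fold change in the ileum minus that in the node. Adjusted p-values come from edgeR's quasi-likelihood test with Benjamini-Hochberg adjustment over 15868 genes, and a gene passed below 0.05. In the ileum the libraries of the genotypes did not overlap for 11.1% of all genes tested with TNFdARE higher, and for 10.4% with TNFdARE lower. In the node these shares were 16.1% and 9.53%, so a lack of overlap was common by itself.

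More genes changed in the ileum than in the node. In ileal Tconv 910 genes passed (5.73% of those tested), 552 of them higher (3.48%) and 358 lower (2.26%) in TNFdARE. In node Tconv 334 passed (2.1%), 275 higher (1.73%) and 59 lower (0.372%). With 3 libraries against 3 in the ileum and 2 against 3 in the node, these counts do not measure which site changed more. At an unadjusted p under 0.05 there were 2896 genes in the ileum and 1527 in the node.

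Of the changed genes, 147 passed at both sites. Among them 117 were higher at both sites, 20 lower at both and 10 went in opposite directions. The 137 with the same direction are 0.863% of the genes tested, 15.1% of the ileal calls and 41% of the node calls. The 2 comparisons use different libraries. Calls of one site mostly had the same sign at the other: 716 of the 910 ileal calls (78.7%) and 279 of the 334 node calls (83.5%), against 56.8% of all genes tested. Over all genes the 2 sets of log2 fold changes correlated weakly (Pearson's r 0.136, Spearman's rank correlation 0.195, across 15868 genes that are not independent).

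The genotype effect itself differed between the sites in 99 genes (0.624% of those tested). In 26 of them (0.164%) the interaction was positive, and in 73 (0.46%) it was negative. By single-site calls, 29 of the 73 negative genes passed only in the node, where they were higher, and 26 passed only in the ileum, where they were lower. A further 8 were lower in the ileum and higher in the node, 8 were higher at both sites and more so in the node, and 2 passed at neither. Of the 26 positive genes, 18 passed only in the ileum, where they were higher, 3 were higher at both, 2 were higher in the ileum and lower in the node, 1 was lower at both, 1 was lower only in the node and 1 passed at neither. The fitted effect had opposite signs at the 2 sites in 64 of the 99.

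**Figure D1:**
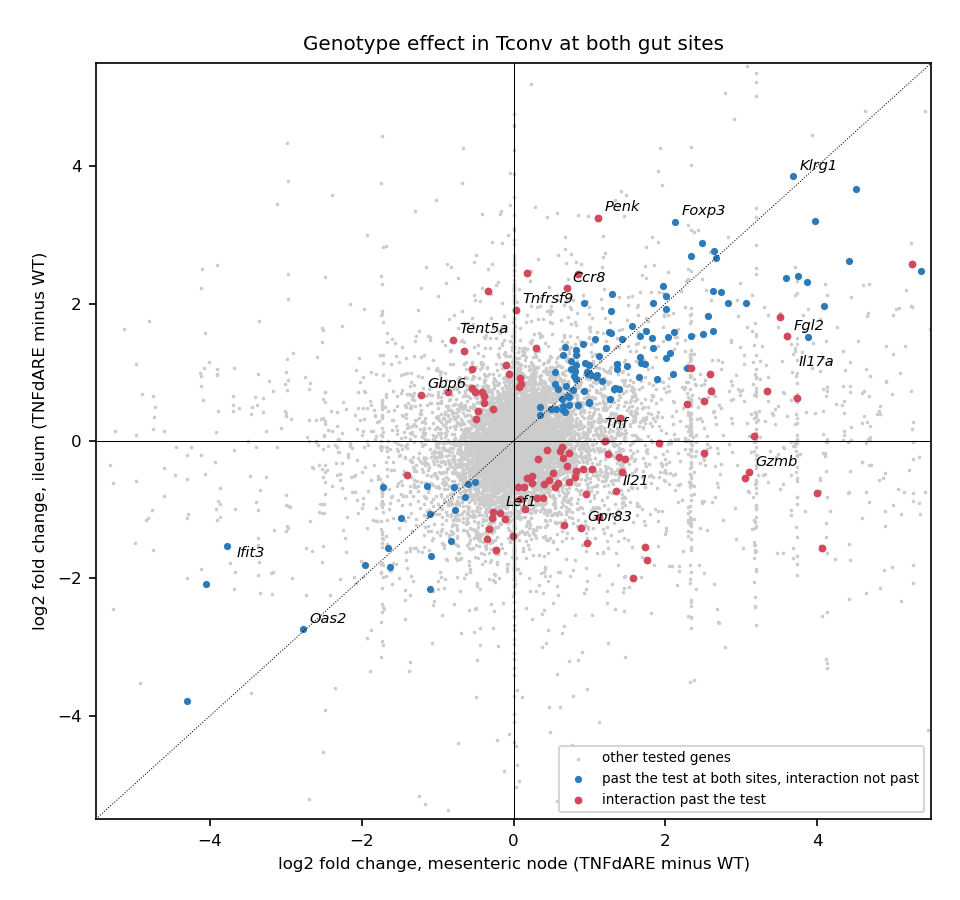
Each point is 1 tested gene, with its log2 fold change of TNFdARE over WT in mesenteric node Tconv on the x axis and in ileal Tconv on the y axis (108 genes outside the plotted range are not drawn). The 125 genes in blue passed at both sites without passing in the interaction and lie toward the dotted diagonal, and the genes in red, whose effect differed between the sites, lie off it, many of them in the lower right (lower in the ileum, higher in the node).

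Some genes moved in opposite directions at the 2 sites. Gpr83, a G protein-coupled receptor abundant in regulatory T cells (chromosome 9, 14860210 to 14870789, GRCm38), was at 8.92, 8.45 and 8.03 CPM in TNFdARE ileum and 21.2, 16.8 and 23 CPM in WT ileum. Node Gpr83 was at 49.6 and 56 CPM in TNFdARE nodes and 31.9, 22.9 and 30.7 CPM in WT nodes. The 3 TNFdARE ileum libraries were the lowest of all 11 and the 2 TNFdARE node libraries the highest, with no overlap of genotypes at either site. It fell 2.4-fold in the ileum (log2 fold change -1.26 ± 0.16, adjusted p = 0.000849) and rose 1.85-fold in the node (0.89 ± 0.16, adjusted p = 0.0138), and the interaction was -2.15 ± 0.23, adjusted p = 0.00382 (95% interval -2.65 to -1.65). The Gpr83 node call was lost without mLN WT B or mLN TNFdARE C (adjusted p = 0.0522 to 0.192).

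Izumo1r, a folate receptor family member on regulatory and follicular helper T cells that lies next to Gpr83 (chromosome 9, 14885814 to 14903949), did the same at a higher level. It was at 172, 167 and 171 CPM in TNFdARE ileum and 263, 241 and 306 CPM in WT ileum. Node Izumo1r was at 214 and 269 CPM in TNFdARE nodes and 159, 156 and 184 CPM in WT nodes, without overlap of genotypes at either site. It fell 1.59-fold in the ileum (-0.67 ± 0.11) and rose 1.46-fold in the node (0.54 ± 0.12). With all 42 libraries or experiments B and C only, neither change passed. The node rise was also lost with the 22 gut libraries (adjusted p = 0.0949). The interaction was -1.21 ± 0.17, adjusted p = 0.0109, and this call was lost without mLN WT A or mLN TNFdARE C (adjusted p = 0.0502 to 0.0703). The Izumo1r node call was lost without any one of 7 libraries, mLN TNFdARE C among them (adjusted p = 0.0554 to 0.553).

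Il21, the cytokine with which follicular helper and type 17 T cells help B cells (chromosome 3, 37222759 to 37232636), was at 123, 125 and 91.6 CPM in TNFdARE ileum and 179, 196 and 187 CPM in WT ileum. Node Il21 was at 26.9 and 40.5 CPM in TNFdARE nodes and 15, 11.6 and 13 CPM in WT nodes. Every TNFdARE ileum library lay below every WT one, and both TNFdARE node libraries lay above every WT one. The fall in the ileum was 1.65-fold (-0.73 ± 0.15, adjusted p = 0.0164), the rise in the node 2.55-fold (1.35 ± 0.18, adjusted p = 0.00258) and the interaction -2.08 ± 0.24, adjusted p = 0.00525 (95% interval -2.6 to -1.56). The Il21 ileal call was lost without ileum TNFdARE C or ileum WT C (adjusted p = 0.0503 to 0.0609), and with all 42 libraries of the series or the 22 gut libraries in the fit none of the 3 Il21 calls passed.

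Myo6, an actin motor that carries vesicles toward filament minus ends (chromosome 9, 80165031 to 80311729), followed the same direction. It was at 6.66, 10.1 and 9.95 CPM in TNFdARE ileum and 21.9, 28.5 and 24.4 CPM in WT ileum. Node Myo6 was at 42.8 and 25.6 CPM in TNFdARE nodes and 18.5, 17 and 17.2 CPM in WT nodes. No library of one genotype reached the other at either site. It fell 2.81-fold in the ileum (-1.49 ± 0.21) and rose 1.95-fold in the node (0.96 ± 0.22), with an interaction of -2.45 ± 0.3, adjusted p = 0.00824. The Myo6 node call was lost without any one of 8 libraries (adjusted p = 0.0572 to 0.432) and with the replicate block (adjusted p = 0.0614), and with all 42 libraries neither the ileal, the node nor the interaction call of Myo6 passed.

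Tent5a, a non-canonical poly(A) polymerase that lengthens the tails of some mRNAs (chromosome 9, 85320439 to 85327348), went the other way. It was at 127, 90.9 and 108 CPM in TNFdARE ileum and 46.4, 34 and 37.1 CPM in WT ileum. Node Tent5a was at 29.6 and 30.4 CPM in TNFdARE nodes and 48.9, 56.9 and 50.6 CPM in WT nodes, again without overlap. It rose 2.78-fold in the ileum (1.48 ± 0.14, adjusted p = 0.000131) and fell 1.74-fold in the node (-0.8 ± 0.16, adjusted p = 0.0234), with an interaction of 2.27 ± 0.21, adjusted p = 0.00312 (95% interval 1.81 to 2.74). The Tent5a node call was lost without any one of mLN WT A, mLN TNFdARE B, mLN WT B or mLN TNFdARE C (adjusted p = 0.0502 to 0.188).

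Lgals3bp, a secreted glycoprotein that binds galectins and is induced by interferons (chromosome 11, 118392751 to 118402092), was the other gene higher in the ileum and lower in the node. It was at 108, 161 and 174 CPM in TNFdARE ileum and 75.4, 102 and 92 CPM in WT ileum. Node Lgals3bp was at 102 and 103 CPM in TNFdARE nodes and 211, 189 and 161 CPM in WT nodes. The 2 TNFdARE node libraries were nearly equal and below all WT ones. With all 42 or the 22 gut libraries in the fit, Lgals3bp passed at neither site. It rose 1.64-fold in the ileum (0.71 ± 0.17) and fell 1.82-fold in the node (-0.86 ± 0.19), and its interaction of 1.58 ± 0.26, adjusted p = 0.0189 was lost without any one of mLN WT A, mLN TNFdARE B, mLN WT B or mLN TNFdARE C (adjusted p = 0.0517 to 0.109). Its ileal call was lost without any one of ileum WT A, ileum TNFdARE B, ileum TNFdARE C or ileum WT C (adjusted p = 0.0777 to 0.111) and its node call without any one of 6 libraries, mLN TNFdARE C among them (adjusted p = 0.0533 to 0.299).

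**Figure D2:**
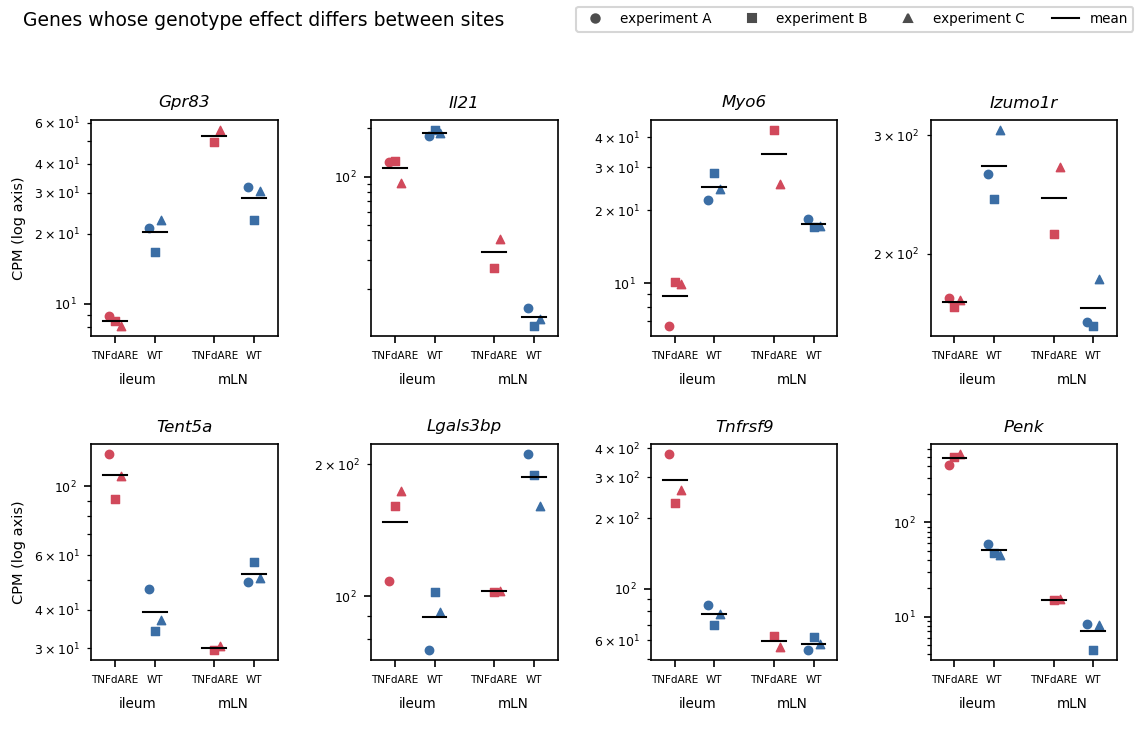
CPM per library on a log axis for 8 genes whose genotype effect differed between the sites, with TNFdARE left of WT at each site and 1 point per library (3, 3, 2 and 3 libraries). Gpr83, Il21, Myo6 and Izumo1r are lower in TNFdARE ileum and higher in TNFdARE nodes, Tent5a and Lgals3bp show the reverse, and Tnfrsf9 and Penk differ by more in the ileum.

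Another group rose in the ileum and not, or by less, in the node. Tnfrsf9, the co-stimulatory receptor 4-1BB (chromosome 4, 150914562 to 150946102), was at 379, 232 and 265 CPM in TNFdARE ileum and 85.3, 69.8 and 77.8 CPM in WT ileum. Node Tnfrsf9 was at 62.8 and 56.2 CPM in TNFdARE nodes and 54.4, 61.9 and 57.7 CPM in WT nodes. The ileal genotypes were far apart while those of the node overlapped. Its ileal rise was 3.76-fold (1.91 ± 0.16, adjusted p = 5.34e-05), its node value 0.04 ± 0.17, adjusted p = 1, and the interaction 1.88 ± 0.24, adjusted p = 0.00824 was lost without mLN TNFdARE C (adjusted p = 0.0703).

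Penk, the precursor of the enkephalin opioid peptides (chromosome 4, 4133531 to 4138819), rose at both sites. It was at 411, 495 and 536 CPM in TNFdARE ileum and 59.3, 47.3 and 45.2 CPM in WT ileum. Node Penk was at 15.1 and 15.4 CPM in TNFdARE nodes and 8.45, 4.41 and 8.22 CPM in WT nodes. The rise was 9.5-fold in the ileum (3.25 ± 0.19, adjusted p = 4.87e-06) and 2.16-fold in the node (1.11 ± 0.23, adjusted p = 0.0249), so the ileal effect was 4.4-fold the node effect (interaction 2.14 ± 0.3, adjusted p = 0.0109, lost without mLN WT A or mLN TNFdARE C (adjusted p = 0.0502 to 0.0749)).

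Ccr8, a chemokine receptor of type 2 and tissue regulatory T cells, rose 4.69-fold in the ileum (2.23 ± 0.12) and 1.62-fold in the node (0.7 ± 0.15; interaction 1.53 ± 0.19, adjusted p = 0.00824). Ikzf4, the transcription factor Eos of regulatory T cells, rose 5.39-fold (2.43 ± 0.17) and 1.8-fold (0.85 ± 0.18; interaction 1.58 ± 0.25, adjusted p = 0.0184). Both therefore changed in one direction at both sites and by more in the ileum. The Ccr8 interaction was lost without mLN TNFdARE C (adjusted p = 0.0629), and that of Ikzf4 without any one of mLN TNFdARE B, mLN WT B or mLN TNFdARE C (adjusted p = 0.0517 to 0.0773). The node calls of Penk, Ccr8 and Ikzf4 were lost without mLN TNFdARE B or mLN TNFdARE C (adjusted p = 0.0993 to 0.184), without any one of mLN WT A, mLN TNFdARE B, mLN WT B or mLN TNFdARE C (adjusted p = 0.0969 to 0.219) and without any one of 5 libraries, mLN TNFdARE C among them (adjusted p = 0.0502 to 0.316).

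Cd86, a ligand of CD28 and CTLA-4 best known from antigen-presenting cells, was at 19.2, 37.5 and 38.5 CPM in TNFdARE ileum and 5.78, 7.77 and 7.29 CPM in WT ileum. Node Cd86 was at 8.97 and 9.81 CPM in TNFdARE nodes and 13.1, 15.3 and 7 CPM in WT nodes, where the genotypes overlapped. It rose 4.55-fold in the ileum (2.19 ± 0.31, adjusted p = 0.0018) and had an interaction of 2.52 ± 0.47, adjusted p = 0.0329. Ly6a, the interferon-inducible surface protein Sca-1, rose 2.47-fold in the ileum (1.3 ± 0.24) and stood at -0.66 ± 0.27 in the node (interaction 1.96 ± 0.37, adjusted p = 0.0361). Padi2, which converts arginine to citrulline in proteins, rose 2.06-fold in the ileum (1.04 ± 0.19) and stood at -0.55 ± 0.21 in the node (interaction 1.6 ± 0.28, adjusted p = 0.0279). These 3 interaction calls were among the less stable: that of Cd86 was lost without any one of 8 libraries, mLN TNFdARE C among them (adjusted p = 0.0734 to 0.148), that of Ly6a without any one of 9 libraries, mLN TNFdARE C among them (adjusted p = 0.0573 to 0.148) and that of Padi2 without any one of 8 libraries, mLN TNFdARE C among them (adjusted p = 0.0514 to 0.11). Reads of Ly6a and of its close relatives may not have been separated by the counting.

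Genes of naive and recirculating T cells were lower in the TNFdARE ileum and not in the node. Igfbp4, a secreted insulin-like growth factor binding protein that marks naive CD4 T cells, was at 152, 197 and 246 CPM in TNFdARE ileum and 342, 565 and 478 CPM in WT ileum. Node Igfbp4 was at 2521 and 1903 CPM in TNFdARE nodes and 1546, 1278 and 1375 CPM in WT nodes, so the 2 TNFdARE libraries were the highest there and the TNFdARE libraries were the lowest in the ileum. It fell 2.33-fold in the ileum (-1.22 ± 0.2, adjusted p = 0.00372), did not pass in the node (0.66 ± 0.22, adjusted p = 0.212) and had an interaction of -1.88 ± 0.29, adjusted p = 0.0178. The Igfbp4 interaction was lost without any one of mLN WT A, mLN TNFdARE B, mLN WT B or mLN TNFdARE C (adjusted p = 0.0502 to 0.0657).

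Of the 13 tested genes of the naive and retention list, 10 fell in the ileum and none rose, while none passed in the node in either direction, where 2.26% of all genes tested were lower in the ileum and 0.372% in the node. The median log2 fold change of the list was -0.71 in the ileum and -0.04 in the node, against -0.01 and 0.02 over all genes tested. Tcf7, the transcription factor TCF-1, was at 1346, 1328 and 1464 CPM in TNFdARE ileum and 2033, 2221 and 2346 CPM in WT ileum. Node Tcf7 was at 2609.5 and 2557 CPM in TNFdARE nodes and 2461, 2538 and 2447 CPM in WT nodes. Lef1, its relative, was at 231, 243 and 267 CPM in TNFdARE ileum and 448, 518 and 562 CPM in WT ileum. Node Lef1 was at 1000.2 and 986 CPM in TNFdARE nodes and 1066, 1145 and 1166 CPM in WT nodes. Neither passed in the node, and in the ileum every TNFdARE library lay below every WT one: Tcf7 fell 1.6-fold (-0.67 ± 0.07, adjusted p = 0.000248) and Lef1 2.06-fold (-1.04 ± 0.09, adjusted p = 9.25e-05). Ccr7, the chemokine receptor that leads naive cells into lymph nodes, fell 1.64-fold (-0.71 ± 0.12, adjusted p = 0.00493) and S1pr1, the receptor for exit from tissue, 1.53-fold (-0.62 ± 0.12, adjusted p = 0.00876).

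In the interaction 4 list genes passed, all negative: Igfbp4, Tcf7 (-0.73 ± 0.11, adjusted p = 0.0134), Lef1 (-0.86 ± 0.14, adjusted p = 0.0186) and Actn1, an actin crosslinker (-0.83 ± 0.16, adjusted p = 0.0361). The ileal count was 10 or 11 when any one library was left out, and 3 with all 42 libraries. The interaction count was 7 with the replicate block or without the filter on low counts, 9 by DESeq2, 0 without mLN WT A or mLN TNFdARE C and 1 without mLN TNFdARE B or mLN WT B. It was 0 with all 42 libraries and 1 with the 22 gut libraries. In bulk RNA, fewer naive cells and less of these RNAs per cell cannot be told apart.

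A further group rose in the node and not, or by less, in the ileum. Fgl2, a secreted fibrinogen-like protein with immunoregulatory activity (chromosome 5, 21372642 to 21378374), was at 191, 273 and 242 CPM in TNFdARE ileum and 84.5, 107 and 52.3 CPM in WT ileum. Node Fgl2 was at 13.8 and 18.8 CPM in TNFdARE nodes and 1.42, 1.28 and 1.3 CPM in WT nodes. Its level was far higher in the ileum of both genotypes, and the genotypes did not overlap at either site. It rose 2.89-fold in the ileum (1.53 ± 0.22, adjusted p = 0.0018) and 12.2-fold in the node (3.61 ± 0.32, adjusted p = 0.000145), with an interaction of -2.08 ± 0.39, adjusted p = 0.0378. The Fgl2 interaction was lost without any one of 9 libraries, mLN TNFdARE C among them (adjusted p = 0.0536 to 0.176).

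Gzmb, the cytotoxic protease granzyme B, was at 345, 381 and 223 CPM in TNFdARE ileum and 467, 492 and 339 CPM in WT ileum, with overlap, and at 4.61 and 7.82 CPM in TNFdARE nodes and 0.474, 0.371 and 1.26 CPM in WT nodes, without. It rose 8.58-fold in the node from a low level (3.1 ± 0.44, adjusted p = 0.00386) and did not pass in the ileum (-0.45 ± 0.24, adjusted p = 0.368), and the interaction was -3.55 ± 0.51, adjusted p = 0.0134. The Gzmb interaction was lost without mLN WT A or mLN TNFdARE C (adjusted p = 0.0502 to 0.0767). Casp4, the inflammatory caspase that senses cytosolic lipopolysaccharide, rose 5.67-fold in the node (2.5 ± 0.22, adjusted p = 0.000145) and did not pass in the ileum (0.59 ± 0.18, adjusted p = 0.0916; interaction -1.92 ± 0.29, adjusted p = 0.0145). Coro2a, an actin-binding coronin, rose 6.08-fold in the node (2.6 ± 0.22, adjusted p = 8e-05) and 1.65-fold in the ileum (0.73 ± 0.18, adjusted p = 0.0384; interaction -1.88 ± 0.28, adjusted p = 0.0145). The interaction of Casp4 was lost without any one of mLN WT A, mLN WT B or mLN TNFdARE C (adjusted p = 0.0517 to 0.0798), and that of Coro2a without mLN WT A or mLN TNFdARE C (adjusted p = 0.0502 to 0.0834). The Gzmb node call was lost without mLN TNFdARE C (adjusted p = 0.0514) and the Coro2a ileal call without any one of 6 libraries (adjusted p = 0.0564 to 0.129).

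Tox2 and Slamf6 belong to the follicular helper list, which split by site. Tox2, a transcription factor of that lineage, was at 458, 501 and 475 CPM in TNFdARE ileum and 523, 455 and 482 CPM in WT ileum. Node Tox2 was at 56 and 129 CPM in TNFdARE nodes and 23.5, 18.4 and 31.6 CPM in WT nodes. The ileal genotypes overlapped, and both TNFdARE node libraries lay above all WT ones but far from each other. It rose 3.76-fold in the node (1.91 ± 0.28, adjusted p = 0.00416), with an interaction of -1.94 ± 0.37, adjusted p = 0.0378. The Tox2 interaction was lost without any one of 8 libraries, mLN TNFdARE C among them (adjusted p = 0.0731 to 0.126). Of the 11 tested list genes, 1 rose (Icos) and 3 fell (Il21, Il6ra, Pou2af1) in the ileum, while 5 rose (Cxcr5, Icos, Il21, Slamf6, Tox2) and none fell in the node. Of all genes tested, 3.48% rose and 2.26% fell in the ileum, and 1.73% rose and 0.372% fell in the node. The list median was -0.36 in the ileum and 0.65 in the node. Both Icos calls were lost with experiments B and C only (adjusted p = 0.139 in the ileum and 0.239 in the node). Each was also lost without any one of 8 libraries. All 11 interactions were below 0, and 3 passed (Il21, Tox2 and Slamf6, the last at -0.89 ± 0.13, adjusted p = 0.0134).

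Cxcr5, the receptor that brings cells into B cell follicles, was at 102, 78.3 and 72.6 CPM in TNFdARE ileum and 117, 97.9 and 129.8 CPM in WT ileum. Node Cxcr5 was at 45.4 and 88.8 CPM in TNFdARE nodes and 22.3, 24.7 and 35.6 CPM in WT nodes, and rose 2.43-fold in the node (1.28 ± 0.27, adjusted p = 0.0269; interaction -1.73 ± 0.36, adjusted p = 0.0553). Bcl6, the lineage's defining transcription factor, passed at neither site (-0.36 ± 0.21 in the ileum and 0.31 ± 0.24 in the node). Node library TNFdARE C was the higher one for Il21, Tox2, Cxcr5 and Slamf6, and without it 2 list genes passed in the node. The count was 3 without mLN WT A or mLN WT B. The interaction count was 1 without mLN TNFdARE C or mLN WT A and 5 without mLN TNFdARE B. With all 42 libraries 2 list genes rose in the node, none fell in the ileum and none passed in the interaction. With the 22 gut libraries these counts were 3, 1 and 0. The interaction count was 7 by DESeq2, 6 without the filter on low counts and 1 with experiments B and C only.

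Sostdc1, a secreted antagonist of BMP and Wnt signals, had 22, 18.2 and 14.8 CPM in TNFdARE ileum and 48.4, 41.6 and 71.1 CPM in WT ileum, and 3.52 and 10.8 CPM in TNFdARE nodes and 1.89, 1.15 and 3.3 CPM in WT nodes. It fell 2.92-fold in the ileum (-1.55 ± 0.37, adjusted p = 0.0294), did not pass in the node (1.73 ± 0.47, adjusted p = 0.097), and had an interaction of -3.28 ± 0.59, adjusted p = 0.0309. The Sostdc1 interaction was lost without any one of 7 libraries, mLN TNFdARE C among them (adjusted p = 0.0645 to 0.196). Hic1, a transcriptional repressor that marks T cells of the intestinal lamina propria, rose 2.61-fold in the node (1.39 ± 0.23, adjusted p = 0.00842) and did not pass in the ileum (-0.23 ± 0.19, adjusted p = 0.579; interaction -1.62 ± 0.3, adjusted p = 0.0329, lost without any one of 8 libraries, mLN TNFdARE C among them (adjusted p = 0.0566 to 0.187)). The Sostdc1 ileal call was lost without any one of ileum WT A, ileum TNFdARE B, ileum TNFdARE C or ileum WT C (adjusted p = 0.0589 to 0.122) and the Hic1 node call without mLN TNFdARE C (adjusted p = 0.14).

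The interaction calls rest on few libraries. All 99 kept their sign within experiment B and within experiment C, whose libraries are part of the fit; experiment A has no value of its own. Without mLN TNFdARE C 8 genes passed, 7 of them among the 99; 13 passed without mLN WT A and 33 without mLN WT B. Of 31 named interaction calls, 4 were kept whichever library was left out: Gpr83, Il21, Myo6 and Tent5a. Of these, Il21 was lost with all 42 libraries and with the 22 gut libraries, and Myo6 with all 42. With the experiment letter as a block 182 genes passed, 95 of the 99 among them, and all 31 named calls were kept. Other sets of libraries ended more calls: 17 of the 31 were lost with all 42 libraries (Actn1, Cd86, Hic1, Ifi27l2a, Igfbp4, Il21, Izumo1r, Lef1, Lgals3bp, Ltb, Myo6, Padi2, Slamf6, Sostdc1, Tcf7, Tgtp2 and Tox2), 13 with the 22 gut libraries, 19 with experiments B and C only and 3 by voom with quality weights (Actn1, Fgl2 and Gzmb). Of 73 named ileal calls 33 were lost with all 42 libraries and 21 with the 22 gut libraries, and of 61 named node calls 33 and 18. For 15 of the 99, all negative, the WT node mean was below 1 CPM, and for 6 of these (Blk, Ago4, Gatm, Ltk, Lrr1 and Zc3h12c) the WT node libraries had no count at all.

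**Figure D3:**
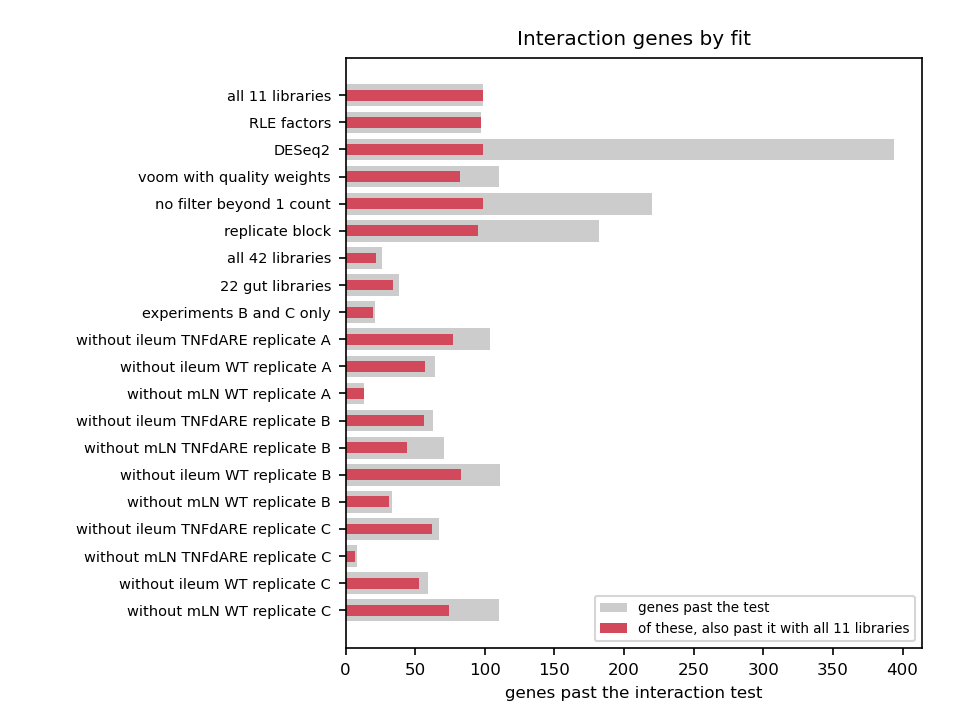
Grey bars give the number of genes past the interaction test in each fit, from 0, and the red bars within them the number that also passed with all 11 libraries. The count is 99 with all 11 libraries, between 8 (without mLN TNFdARE C) and 111 with 1 library left out, and 394 with DESeq2.

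Most genes induced by type I interferons fell in the node and fewer did in the ileum, with the larger fitted effect in the node for 33 of 34. Interferon-stimulated genes are switched on by the factor ISGF3, which binds the interferon-stimulated response element, and by related factors of the IRF family, and their products block viruses or restrain the response. Of the 34 tested genes of the list, 9 fell and 1 rose in the ileum, while 29 fell and none rose in the node, and 8 fell at both. Of all genes tested, 2.26% fell in the ileum and 0.372% in the node. The list median was -0.53 in the ileum and -1.52 in the node. Averaged over both sites 32 of the 34 fell, where 5.67% of all genes tested passed in either direction and 1.65% were lower. Summed CPM of the list, scaled to total counts, was 1266 to 1356 in TNFdARE ileum and 1412 to 1746 in WT ileum, and 2211 to 2481 in TNFdARE nodes and 3919 to 5761 in WT nodes.

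For 4 of the genes that the results turn on, the promoter windows of RefSeq (250 bases before to 50 after the start, GRCm38.p6) are printed to show where the response element motif lies. Capitals mark GAAA, any 2 bases and GAAA again, the core of that element and the only motif searched, on either strand. They were picked after the matches were seen, from the lists of interferon-induced and of guanylate-binding and immunity-related GTPase genes.
Rsad2 (chr12:26456403-26456702, minus strand): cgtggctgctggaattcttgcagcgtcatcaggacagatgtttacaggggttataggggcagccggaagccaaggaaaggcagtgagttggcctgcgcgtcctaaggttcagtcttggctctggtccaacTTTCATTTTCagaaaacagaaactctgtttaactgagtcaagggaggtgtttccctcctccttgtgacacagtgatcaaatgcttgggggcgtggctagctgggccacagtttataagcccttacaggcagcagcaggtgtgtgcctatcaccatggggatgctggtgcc
Ifit3 (chr19:34583279-34583578, plus strand): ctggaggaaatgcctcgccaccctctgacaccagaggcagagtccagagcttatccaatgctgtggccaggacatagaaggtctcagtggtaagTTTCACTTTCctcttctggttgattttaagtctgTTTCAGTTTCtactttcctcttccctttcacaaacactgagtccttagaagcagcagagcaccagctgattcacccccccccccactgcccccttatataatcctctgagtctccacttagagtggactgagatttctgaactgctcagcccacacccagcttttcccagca
Gbp7 (chr3:142530086-142530385, plus strand): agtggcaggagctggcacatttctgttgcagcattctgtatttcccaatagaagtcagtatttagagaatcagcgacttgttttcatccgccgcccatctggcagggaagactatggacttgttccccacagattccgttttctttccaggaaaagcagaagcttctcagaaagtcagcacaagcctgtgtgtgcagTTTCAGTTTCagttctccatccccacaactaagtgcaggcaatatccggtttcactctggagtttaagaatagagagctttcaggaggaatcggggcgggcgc
Tgtp2 (chr11:49064163-49064462, minus strand): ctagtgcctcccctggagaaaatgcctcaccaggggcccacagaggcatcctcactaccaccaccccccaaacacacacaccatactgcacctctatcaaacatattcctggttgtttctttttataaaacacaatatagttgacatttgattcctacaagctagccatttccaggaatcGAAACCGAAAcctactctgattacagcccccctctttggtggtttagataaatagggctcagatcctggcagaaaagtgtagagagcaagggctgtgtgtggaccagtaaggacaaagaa
The motif starts 120 bases before the start in Rsad2, 156 and 122 before it in Ifit3, 53 before it in Gbp7 and 70 before it in Tgtp2. A window was found for 24 of the 34 interferon genes, and 14 of these (58.3%) held the motif, against 3.62% of 10765 tested genes outside both lists. All 9 GTPase genes with a window held it. A match is a description of these letters and no evidence that a factor binds there.

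Rsad2, the antiviral enzyme viperin (chromosome 12, 26442746 to 26456452), was at 7.86, 4.7 and 4.04 CPM in TNFdARE ileum and 21.2, 17.5 and 9.26 CPM in WT ileum. Node Rsad2 was at 2.64 and 4.46 CPM in TNFdARE nodes and 65.8, 54.6 and 25.3 CPM in WT nodes. TNFdARE libraries lay below all WT ones at both sites, and WT C was the lowest WT library at each. It fell 2.88-fold in the ileum (-1.52 ± 0.4, adjusted p = 0.0467) and 13.7-fold in the node (-3.78 ± 0.51, adjusted p = 0.00258). The interaction did not pass (2.26 ± 0.62, adjusted p = 0.158, 95% interval 0.91 to 3.6), and the ileal call was lost without any one of 7 libraries, mLN TNFdARE C among them (adjusted p = 0.0554 to 0.158).

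Ifit3, an interferon-induced antiviral protein (chromosome 19, 34583531 to 34588731), was at 3.42, 2.95 and 2.07 CPM in TNFdARE ileum and 9.92, 15.4 and 3.39 CPM in WT ileum. Node Ifit3 was at 8.13 and 12.7 CPM in TNFdARE nodes and 189.7, 153 and 70.5 CPM in WT nodes. The node genotypes were well apart, and in the ileum WT C reached the TNFdARE range. It fell 13.3-fold in the node (-3.73 ± 0.55, adjusted p = 0.00449), a call lost without mLN TNFdARE C (adjusted p = 0.0514), and did not pass in the ileum (-1.77 ± 0.52, adjusted p = 0.0749), but the difference between the sites did not pass either (1.96 ± 0.73, adjusted p = 0.369). With the replicate block Ifit3 passed in the ileum (adjusted p = 0.0395). Reads of Ifit3 and of its near copy Ifit3b may have been split by the counting, and Ifit3b fell at both sites (-2.08 ± 0.55, adjusted p = 0.0498 in the ileum, -4.05 ± 0.56, adjusted p = 0.00327 in the node).

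Oas2, an enzyme that senses double-stranded RNA and signals its degradation, was at 0.925, 2.1 and 2.22 CPM in TNFdARE ileum and 9.14, 17.1 and 8.25 CPM in WT ileum. Node Oas2 was at 10 and 10.9 CPM in TNFdARE nodes and 102, 72.7 and 39.5 CPM in WT nodes. It fell 6.65-fold in the ileum (-2.73 ± 0.43, adjusted p = 0.00307) and 6.81-fold in the node (-2.77 ± 0.43, adjusted p = 0.00586), with an interaction of 0.03 ± 0.65. The node call was lost without mLN TNFdARE B or mLN TNFdARE C (adjusted p = 0.0555 to 0.0844) and with all 42 or the 22 gut libraries, and the ileal call by voom and with all 42. Usp18, the protease that restrains interferon receptor signalling, fell 3.49-fold (-1.8 ± 0.24, adjusted p = 0.00117) and 3.87-fold (-1.95 ± 0.24, adjusted p = 0.00186), and Rtp4, an interferon-induced chaperone, fell 2.93-fold (-1.55 ± 0.21, adjusted p = 0.00111) and 3.14-fold (-1.65 ± 0.22, adjusted p = 0.00258). For these 3 genes the 95% intervals of the interaction were -1.39 to 1.46, -0.58 to 0.87 and -0.54 to 0.74. Ifit1 fell 5.87-fold in the node (-2.55 ± 0.4, adjusted p = 0.00585) and Oasl2 4.99-fold (-2.32 ± 0.45, adjusted p = 0.0186), and Cmpk2, a nucleotide kinase next to Rsad2, 3.95-fold (-1.98 ± 0.31, adjusted p = 0.00564). None of these 3 passed in the ileum. Their node calls were lost without mLN TNFdARE B or mLN TNFdARE C (adjusted p = 0.0604 to 0.0605), without any one of mLN WT A, mLN TNFdARE B, mLN WT B or mLN TNFdARE C (adjusted p = 0.0614 to 0.155) and without mLN TNFdARE C (adjusted p = 0.089).

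All 34 interactions of the list were above 0, with a median of 0.82 against -0.05 over all genes, and 2 passed. Ifi27l2a, an interferon-induced mitochondrial protein, fell at both sites and by more in the node (interaction 0.91 ± 0.17, adjusted p = 0.0319, lost without any one of 8 libraries, mLN TNFdARE C among them (adjusted p = 0.0562 to 0.125)). Its ileal call was lost without ileum WT B or ileum TNFdARE C (adjusted p = 0.0656 to 0.0691), and both its ileal and interaction calls were lost with all 42 libraries, with the 22 gut libraries and with experiments B and C only.

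The node count of 29 fell to 10 without mLN TNFdARE C, 11 without mLN TNFdARE B and 17 without mLN WT A or mLN WT B, and it was 9 with all 42 libraries, 16 with the 22 gut libraries and 14 with experiments B and C only. The ileal count of 9 was 5 without ileum TNFdARE B, 4 without mLN WT B and 3 without ileum WT B or ileum TNFdARE C, 2 by voom with quality weights, 18 by DESeq2, 17 without the filter on low counts, 3 with the 22 gut libraries and 0 with all 42 libraries in the fit. The averaged count stayed between 22 and 32 with 1 library left out, and was 14 with all 42 libraries and 19 with the 22 gut libraries.

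Guanylate-binding proteins and immunity-related GTPases, which attack intracellular pathogens and respond mainly to interferon gamma, split between the sites. Of 14 tested genes, 5 rose (Gbp2, Gbp3, Gbp5, Gbp7 and Tgtp2) and none fell in the ileum, while none rose and 5 fell (Gbp6, Gbp9, Gbp10, Igtp and Irgm1) in the node, against 3.48% of all genes higher in the ileum and 0.372% lower in the node. The list median was 0.42 in the ileum and -0.46 in the node, and all 14 interactions were above 0. Gbp6 (chromosome 5, 105270702 to 105293698) was at 63.2, 66.2 and 56.9 CPM in TNFdARE ileum and 42.9, 43.7 and 30.1 CPM in WT ileum. Node Gbp6 was at 23.3 and 26 CPM in TNFdARE nodes and 71.8, 62.3 and 37.9 CPM in WT nodes, so the genotypes stood in opposite order at the 2 sites. It fell 2.33-fold in the node (-1.22 ± 0.24, adjusted p = 0.0208; lost without any one of mLN WT A, mLN TNFdARE B, mLN WT B or mLN TNFdARE C (adjusted p = 0.0693 to 0.151)), did not pass in the ileum (0.67 ± 0.21, adjusted p = 0.0847) and had an interaction of 1.89 ± 0.32, adjusted p = 0.0224. The Gbp6 interaction was lost without any one of 5 libraries, mLN TNFdARE C among them (adjusted p = 0.0547 to 0.103).

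Gbp7 (chromosome 3, 142530342 to 142550149) was at 190.1, 195 and 161 CPM in TNFdARE ileum and 114, 131 and 88.2 CPM in WT ileum. Node Gbp7 was at 166 and 173 CPM in TNFdARE nodes and 268, 259 and 198 CPM in WT nodes. It rose 1.64-fold in the ileum (0.71 ± 0.15, adjusted p = 0.0144), with an interaction of 1.23 ± 0.22, adjusted p = 0.0309, and Tgtp2 rose 1.64-fold (0.71 ± 0.14, adjusted p = 0.00914), with an interaction of 1.13 ± 0.2, adjusted p = 0.0279. The Gbp7 interaction was lost without any one of 7 libraries, mLN TNFdARE C among them (adjusted p = 0.0562 to 0.13), and that of Tgtp2 without any one of 6 libraries, mLN TNFdARE C among them (adjusted p = 0.055 to 0.126). The list's node count was 0 without mLN TNFdARE C and 1 without mLN TNFdARE B, mLN WT A or mLN WT B, its ileal count 3 without ileum TNFdARE C or ileum WT C, and its interaction count of 3 was 5 with the replicate block and 0 without any one of ileum TNFdARE B and the node libraries TNFdARE B, TNFdARE C, WT A and WT B. With all 42 libraries 2 rose in the ileum and 1 fell in the node, and with experiments B and C only these counts were 2 and 0. The interaction count was 8 by DESeq2, 7 without the filter on low counts and 0 with experiments B and C only. These genes lie in clusters of close copies, and reads shared by copies may have been split. Ifng itself, at 204, 269.8 and 253 CPM in TNFdARE ileum and 236, 296 and 139 CPM in WT ileum, passed at neither site (0.11 ± 0.24 in the ileum and 0.55 ± 0.46 in the node).

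**Figure D4:**
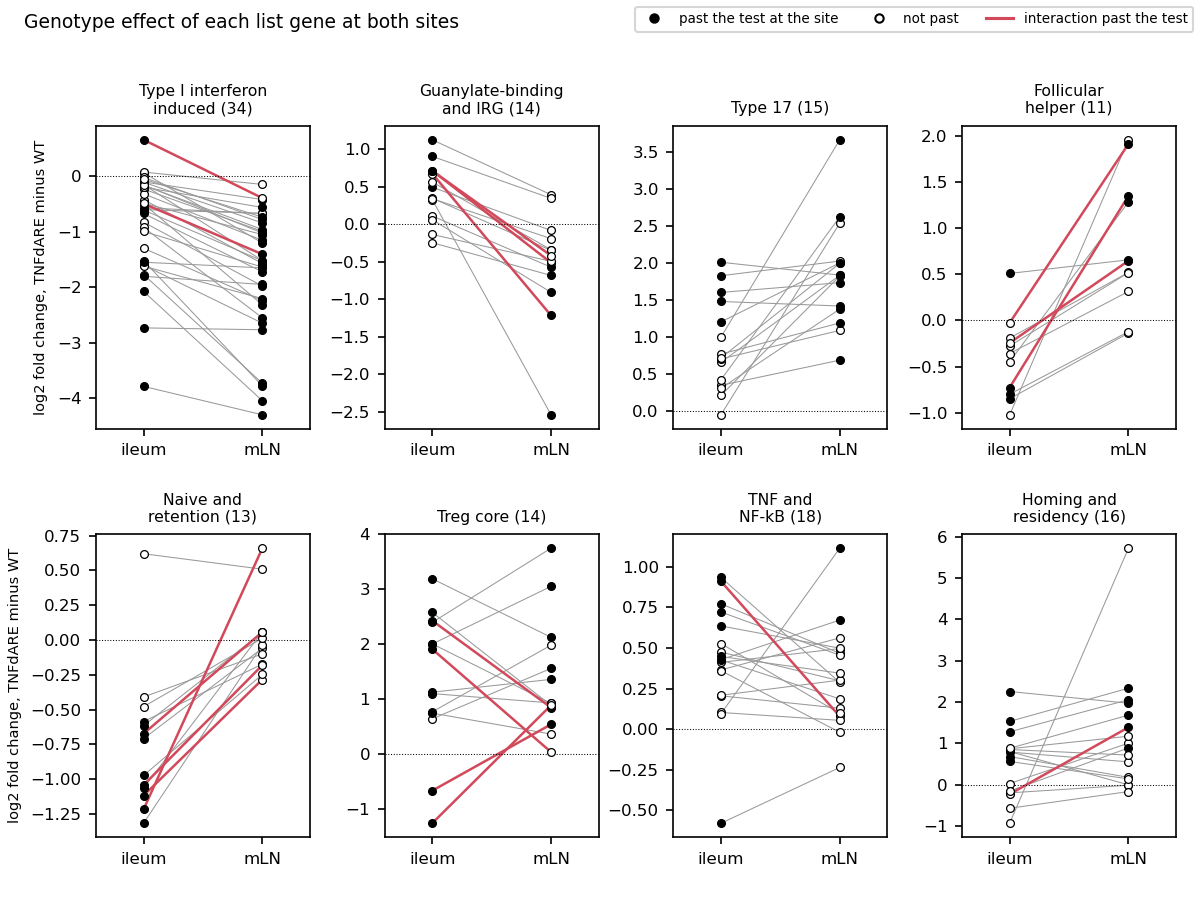
Log2 fold change of TNFdARE over WT in the ileum (left) and the mesenteric node (right) for every tested gene of 8 lists, with 1 line per gene, filled circles where the gene passed at that site and red lines where the interaction passed. Lines of the interferon and guanylate-binding lists slope down from ileum to node, those of the naive list (12 of 13) and the follicular helper list slope up, and the type 17 genes lie above 0 at both sites except 1 in the ileum.

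There were 125 genes that passed at both sites in the same direction without passing in the interaction, 106 higher and 19 lower. For 63 of them the 95% interval of the interaction lay within 1 of 0 on the log2 scale, and its median width was 1.25. In 77 of the 125 the fitted effect was larger in the node.

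Il1r2, the decoy receptor for interleukin-1 (chromosome 1, 40074079 to 40125231), was at 385, 367 and 428 CPM in TNFdARE ileum and 75.1, 57 and 92 CPM in WT ileum. Node Il1r2 was at 18.7 and 26.1 CPM in TNFdARE nodes and 1.7, 1.44 and 1.82 CPM in WT nodes. Every TNFdARE library exceeded every WT library of its site by a wide margin. It rose 5.27-fold in the ileum (2.4 ± 0.17, adjusted p = 1.78e-05) and 13.5-fold in the node (3.75 ± 0.23, adjusted p = 1.46e-05), with an interaction of -1.35 ± 0.29, adjusted p = 0.0628.

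Ttn and Neb encode titin and nebulin, giant scaffold proteins best known from muscle. Ttn (chromosome 2, 76703980 to 76982547) was at 627, 234 and 403 CPM in TNFdARE ileum and 31.2, 14.6 and 54.2 CPM in WT ileum. Node Ttn was at 41.9 and 94.1 CPM in TNFdARE nodes and 3.32, 1.86 and 3.7 CPM in WT nodes. Neb was at 157, 175 and 287 CPM in TNFdARE ileum and 25.1, 22.7 and 36.6 CPM in WT ileum. Node Neb was at 28.3 and 44.9 CPM in TNFdARE nodes and 8.29, 4.04 and 7.22 CPM in WT nodes. Ttn varied within a genotype more than Neb did in the ileum. Neither gene's genotypes overlapped at either site, but a lack of overlap was a condition of one of the rules that chose both genes. Ttn rose 12.7-fold in the ileum (3.67 ± 0.49, adjusted p = 0.00117) and 22.8-fold in the node (4.51 ± 0.59, adjusted p = 0.00221), and Neb 7.33-fold (2.87 ± 0.3, adjusted p = 0.000221) and 5.59-fold (2.48 ± 0.34, adjusted p = 0.00277).

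Serpina3g, an inhibitor of cathepsin proteases that is induced in activated T cells, rose 4.52-fold in the ileum (2.18 ± 0.18, adjusted p = 6.1e-05) and 6.16-fold in the node (2.62 ± 0.21, adjusted p = 6.1e-05). Its relative Serpina3f rose 6.48-fold (2.7 ± 0.31) and 5.04-fold (2.33 ± 0.36), and reads of the 2 may have been mixed. Sdc4, a cell-surface heparan sulfate proteoglycan, rose 4.97-fold (2.31 ± 0.24) and 14.6-fold (3.87 ± 0.44). The WT node libraries lay between 0.124 and 0.671 CPM, so its node fold starts from a level near the floor. Ccr1, an inflammatory chemokine receptor, stood at 135, 234 and 268 CPM in TNFdARE ileum and 32.2, 38.9 and 32.6 CPM in WT ileum. Node Ccr1 was at 3.86 and 1.9 CPM in TNFdARE nodes and 0, 0 and 0.37 CPM in WT nodes. It passed at both sites (adjusted p = 0.00046 and 0.009). Adam8, a membrane metalloprotease, rose 4.52-fold in the ileum (2.18 ± 0.34) and passed in the node, at 7.42 and 7.68 CPM in TNFdARE nodes and 1.74, 0 and 1.59 CPM in WT nodes (adjusted p = 0.0137). The node calls of Serpina3f, Ccr1 and Adam8 were lost without mLN TNFdARE C (adjusted p = 0.0702), without mLN TNFdARE B (adjusted p = 0.0828) and without mLN TNFdARE B or mLN TNFdARE C (adjusted p = 0.0571 to 0.101).

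Fewer genes were lower at both sites. Ifi214 and Ifi213 belong to the PYHIN family of DNA sensors: Ifi214 fell 3.56-fold in the ileum (-1.83 ± 0.21, adjusted p = 0.000392) and 3.1-fold in the node (-1.63 ± 0.21, adjusted p = 0.00221), and Ifi213 2.17-fold (-1.12 ± 0.16, adjusted p = 0.00185) and 2.79-fold (-1.48 ± 0.18, adjusted p = 0.00186). The family members are close copies. Sox4, a transcription factor, fell 3.19-fold (-1.67 ± 0.22, adjusted p = 0.001) and 2.13-fold (-1.09 ± 0.24, adjusted p = 0.0363), and Arhgap29, a GTPase-activating protein, 4.47-fold (-2.16 ± 0.24, adjusted p = 0.000327) and 2.15-fold (-1.11 ± 0.24, adjusted p = 0.0362). The node calls of Sox4 and Arhgap29 were lost without any one of 5 libraries, mLN TNFdARE C among them (adjusted p = 0.051 to 0.419) and without any one of 5 libraries, mLN TNFdARE C among them (adjusted p = 0.0625 to 0.256). In the ileum, Ly6c1, a surface protein of the Ly6 family, fell 4.39-fold (-2.14 ± 0.35, adjusted p = 0.00355), Myo10, an actin motor of filopodia, 4.12-fold (-2.04 ± 0.24, adjusted p = 0.000492), and Jaml, a junction adhesion molecule-like protein, 3.94-fold (-1.98 ± 0.31, adjusted p = 0.00307). In the node these 3 stood at -0.92 ± 0.35, -0.99 ± 0.25 and -0.95 ± 0.35 and did not pass, but none of their interactions passed either. With all 42 libraries in the fit, Arhgap29, Sox4 and Ifi213 passed at neither site. Nor did Ifi214 in the node, or Ly6c1, Myo10 and Jaml in the ileum. With the 22 gut libraries Arhgap29 and Sox4 again passed at neither site, and the ileal calls of Ly6c1 and Jaml were lost.

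**Figure D5:**
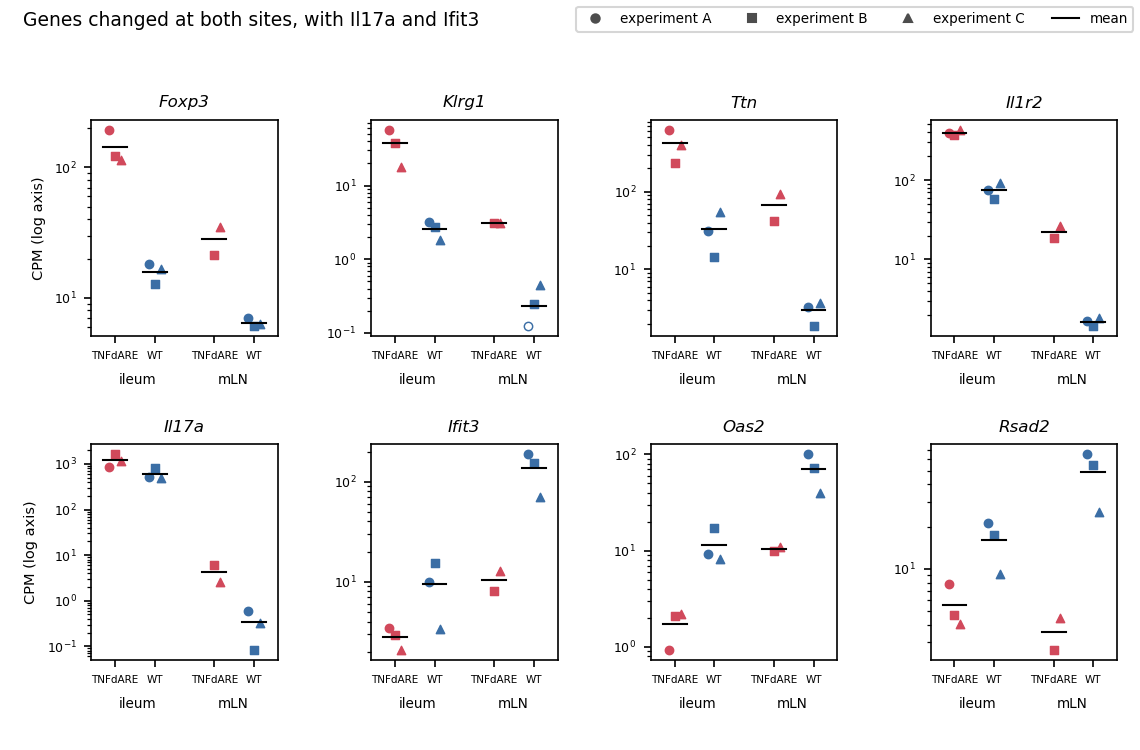
CPM per library on a log axis for 8 genes, with TNFdARE left of WT at each site, 1 symbol per library (its shape gives the experiment) and a line at the group mean. Foxp3, Klrg1, Ttn and Il1r2 are higher and Oas2 and Rsad2 lower in TNFdARE at both sites, while Il17a and Ifit3 passed only in the node. The open circle marks the WT node library A, which had no Klrg1 count and is drawn below the lowest value.

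Foxp3, the defining transcription factor of regulatory T cells, rose in Tconv at both sites. It was at 194, 122 and 114 CPM in TNFdARE ileum and 18.1, 12.7 and 16.5 CPM in WT ileum. Node Foxp3 was at 21.1 and 35.2 CPM in TNFdARE nodes and 6.95, 6.06 and 6.3 CPM in WT nodes, without overlap. The rise was 9.15-fold in the ileum (3.19 ± 0.24, adjusted p = 2.92e-05) and 4.37-fold in the node (2.13 ± 0.26, adjusted p = 0.00186), and the interaction did not pass (1.07 ± 0.35, adjusted p = 0.281). Scaled to total counts, the Foxp3 level of ileal Tconv was 9.54% of that of sorted ileal regulatory T cells (Treg) in TNFdARE and 1.39% in WT, and in the node 2.52% in TNFdARE and 0.648% in WT.

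Other genes of the Treg core list moved with Foxp3. Of 14 tested genes, 10 rose and 2 fell (Gpr83 and Izumo1r) in the ileum, and 9 rose and none fell in the node, against 3.48% of all genes higher in the ileum and 1.73% in the node. Besides Foxp3, Capg, Ikzf4, Il1r2, Lrrc32 and Tnfrsf4 rose at both sites, while Gpr83 and Izumo1r rose in the node and fell in the ileum. The list median was 1.52 in the ileum and 0.93 in the node. Lrrc32, the GARP protein that holds latent TGF-beta on Treg, rose 4.01-fold in the ileum (2.0 ± 0.35, adjusted p = 0.00539) and passed in the node at 2.77 and 5.17 CPM in TNFdARE nodes and 0.908, 0.165 and 0.333 CPM in WT nodes (adjusted p = 0.0102). Nrp1, neuropilin-1 of thymus-derived Treg, rose 5.98-fold in the ileum (2.58 ± 0.25, adjusted p = 0.000131) and stood at 0.89 ± 0.26 in the node.

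Tnfrsf4, the co-stimulatory receptor OX40, rose 2.18-fold in the ileum (1.13 ± 0.1, adjusted p = 8.45e-05) and 2.57-fold in the node (1.36 ± 0.11, adjusted p = 8e-05), with an interaction of -0.23 ± 0.15 (95% interval -0.56 to 0.1). Summed CPM of the list was 2619 to 2902 in TNFdARE ileum and 1119 to 1261 in WT ileum, and 728.8 to 848.9 in TNFdARE nodes and 447.5 to 508.8 in WT nodes. Gpr83 was at 30.3% of the Treg level in TNFdARE ileum and 22.4% in WT ileum, and at 23% in TNFdARE nodes and 8.01% in WT nodes. Its level relative to Treg was thus higher in TNFdARE at both sites, but Treg themselves had less Gpr83 in TNFdARE. Their mean was 26.4 CPM in TNFdARE ileum, 89.4 CPM in WT ileum, 238 CPM in TNFdARE nodes and 372 CPM in WT nodes. For every gene of the list this share was higher in TNFdARE, except Tnfrsf9 in the node (15.1% in TNFdARE, 19.7% in WT). Il1r2 of TNFdARE ileum stood at 134% of the Treg level. The part of Treg RNA in these results was not tested. The ileal count was 9 or 10 with 1 library left out. The node count of 9 was 3 without mLN TNFdARE C, 4 without mLN WT B, 5 without mLN WT A and 4 with experiments B and C only.

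Klrg1, an inhibitory receptor of differentiated effector cells (chromosome 6, 122270596 to 122282882), was at 57.1, 37.7 and 18 CPM in TNFdARE ileum and 3.25, 2.72 and 1.82 CPM in WT ileum. Node Klrg1 was at 3.06 and 3.08 CPM in TNFdARE nodes and 0, 0.247 and 0.445 CPM in WT nodes, with both TNFdARE libraries above all WT ones. It rose 14.5-fold in the ileum (3.85 ± 0.49, adjusted p = 0.000895) and 12.8-fold in the node (3.68 ± 0.68, adjusted p = 0.0136). The Klrg1 node call was lost without any one of mLN TNFdARE B, mLN WT B or mLN TNFdARE C (adjusted p = 0.053 to 0.0893). The interaction was 0.17 ± 1.06, adjusted p = 1, and its wide 95% interval (-2.13 to 2.48) leaves a difference in either direction possible.

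Of the 17 tested genes of the cytotoxic list, 6 rose in the ileum (Eomes, Gzmk, Klrc1, Klrg1, Klrk1 and Zeb2) and 5 in the node (Ccl3, Ccl5, Cx3cr1, Gzmb and Klrg1), with none lower at either site and Klrg1 alone in both sets. Over all genes tested 3.48% were higher in the ileum and 1.73% in the node. Gzmk, a granzyme of memory cells, rose 2.74-fold in the ileum (1.45 ± 0.3, adjusted p = 0.0144), and Ccl5, a chemoattractant, 3.46-fold in the node (1.79 ± 0.37, adjusted p = 0.0259). For Ccl3 no WT node library had a count, and for Cx3cr1 they had 1 count in all, so no fold is given. The node count was 0 without mLN TNFdARE C, 2 without mLN WT B, 3 without mLN WT A or mLN WT C and 1 by voom. With all 42 libraries 1 rose in the ileum and 3 in the node.

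Genes of the type 17 list rose in part at both sites. Il17a, the cytokine that defines the lineage (chromosome 1, 20730905 to 20734496), was at 837, 1664 and 1134 CPM in TNFdARE ileum and 525, 797 and 495 CPM in WT ileum. Node Il17a was at 6.08 and 2.61 CPM in TNFdARE nodes and 0.592, 0.0825 and 0.333 CPM in WT nodes. Every ileum library lay far above every node library, and the genotypes did not overlap at either site. It rose 12.7-fold in the node (3.67 ± 0.6, adjusted p = 0.00709). The Il17a node call was lost without mLN TNFdARE B (adjusted p = 0.0761), by voom and with all 42 libraries. Il17a did not pass in the ileum (1.0 ± 0.3, adjusted p = 0.0763), and neither did the difference between the sites (-2.67 ± 0.7, adjusted p = 0.135, 95% interval -4.19 to -1.15). With the experiment letter as a replicate block both passed (adjusted p = 0.00882 and 0.0475).

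Of the 15 tested list genes, 6 rose in the ileum (Ccr6, Il17re, Il23r, Ltb4r1, Tmem176a and Tmem176b) and 11 in the node, none fell, and none passed in the interaction. Of all genes tested, 3.48% rose in the ileum and 1.73% in the node. Averaged over both sites 13 rose, where 4.02% of all genes tested were higher. The list median was 0.72 in the ileum and 1.84 in the node. Ccr6, the receptor for the chemokine CCL20, rose 2.31-fold in the ileum (1.21 ± 0.25, adjusted p = 0.0128) and 4.02-fold in the node (2.01 ± 0.29, adjusted p = 0.00424). Tmem176b, a membrane protein, rose 3.04-fold (1.61 ± 0.22, adjusted p = 0.00117) and 3.34-fold (1.74 ± 0.26, adjusted p = 0.005).

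The node count of 11 was 5 without mLN TNFdARE C, and the ileal count of 6 was 10 with the replicate block, by voom or without the filter. With all 42 libraries 3 rose in the ileum and 4 in the node. Of 5 tested genes of the list of gamma-delta T cell and innate lymphoid genes, 2 also rose at both sites and none fell. Over all genes tested 3.48% rose in the ileum and 1.73% in the node. The 2 were Kit (1.56 ± 0.25 in the ileum and 2.5 ± 0.41 in the node) and Tcrg-C1 (1.59 ± 0.25 and 2.12 ± 0.36). Summed CPM of the 6 listed genes was 212.7 to 400.2 in TNFdARE ileum and 126.6 to 181.9 in WT ileum, and 23.69 to 29.74 in TNFdARE nodes and 16.45 to 20.41 in WT nodes. Tcrg-C2 and Tcrg-C4 passed at neither site. Scaled to total counts, Tcrg-C4 was at 4.42, 8.68 and 4.48 CPM in TNFdARE ileum and 8.66, 11.8 and 9.75 CPM in WT ileum. Tcrg-C2 was at 39.4, 84.1 and 59.8 CPM in TNFdARE ileum and 42.4, 66.4 and 36.6 CPM in WT ileum. On the same scale Trdc, the delta chain constant gene, was at 5.373, 2.958 and 2.335 CPM in TNFdARE ileum and 6.574, 6.478 and 7.262 CPM in WT ileum, where TNFdARE was below WT. Node Trdc was at 8.532 and 10.55 CPM in TNFdARE nodes and 10.03, 11.95 and 11.73 CPM in WT nodes, where the genotypes overlapped. Trdc passed at neither site. The node calls of Kit and Tcrg-C1 were lost without mLN TNFdARE B (adjusted p = 0.0612) and without mLN TNFdARE C (adjusted p = 0.1). The part of such cells in the type 17 result was not tested.

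Of 16 homing and residency genes, 8 rose in the ileum and 6 in the node, with none lower and Ccr2, Gpr15 and Itgae in both, against 3.48% and 1.73% of all genes. Gpr15, a receptor for entry into the large bowel, was at 10.6, 10.4 and 10.5 CPM in TNFdARE ileum and 1.49, 3.34 and 1.72 CPM in WT ileum. Node Gpr15 was at 2.52 and 4.6 CPM in TNFdARE nodes and 1.11, 0.825 and 0.778 CPM in WT nodes. It rose 4.77-fold in the ileum (2.25 ± 0.34, adjusted p = 0.00267) and 3.92-fold in the node (1.97 ± 0.38, adjusted p = 0.0194). The Gpr15 node call was lost without any one of mLN WT B, mLN TNFdARE C or mLN WT C (adjusted p = 0.0612 to 0.286). Itgae, the CD103 chain that binds epithelial E-cadherin, rose 2.89-fold (1.53 ± 0.25, adjusted p = 0.00408) and 5.04-fold (2.33 ± 0.3, adjusted p = 0.00209), and Ccr2, an inflammatory chemokine receptor, 2.42-fold (1.28 ± 0.22, adjusted p = 0.00554) and 4.16-fold (2.05 ± 0.28, adjusted p = 0.00303). Ccr9, the receptor for homing to the small bowel, passed at neither site (0.02 ± 0.27 and 1.0 ± 0.33). The ileal count was 5 without ileum WT A or ileum WT C or with the 22 gut libraries, 4 with all 42, and the node count 3 without mLN WT B and 2 without mLN TNFdARE C.

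Of 18 tested genes of the TNF and NF-kB list, 8 rose and 1 fell in the ileum, while 2 rose (Bcl3 and Tnf) and none fell in the node, where 3.48% of all genes were higher in the ileum and 1.73% in the node. The medians were 0.43 in the ileum and 0.3 in the node. Tnfrsf1b, which encodes TNFR2, was at 1307, 1058 and 1122 CPM in TNFdARE ileum and 904, 696 and 643 CPM in WT ileum. Node Tnfrsf1b was at 158 and 158 CPM in TNFdARE nodes and 116, 105 and 114 CPM in WT nodes. It rose 1.55-fold in the ileum (0.64 ± 0.12, adjusted p = 0.0096) and did not pass in the node (0.5 ± 0.14, adjusted p = 0.103), with an interaction of 0.14 ± 0.18. Tnfrsf1a, which encodes TNFR1, was the list gene that fell in the ileum (-0.58 ± 0.1, adjusted p = 0.00603). Nfkbie, an inhibitor of NF-kB induced by it, rose 1.91-fold (0.94 ± 0.15, adjusted p = 0.00324), and Nfkb2, the non-canonical subunit, 1.71-fold (0.77 ± 0.16, adjusted p = 0.0119).

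Ltb, a TNF family cytokine that acts with lymphotoxin alpha, was the 1 gene of that list to differ between the sites. It was at 415, 551 and 460.1 CPM in TNFdARE ileum and 240.2, 257 and 261 CPM in WT ileum. Node Ltb was at 864 and 818 CPM in TNFdARE nodes and 783, 825 and 781 CPM in WT nodes, so the rise of 1.88-fold was in the ileum (0.91 ± 0.1, adjusted p = 0.00028) and the interaction was 0.83 ± 0.15, adjusted p = 0.0279. The Ltb interaction was lost without any one of 7 libraries, mLN TNFdARE C among them (adjusted p = 0.0544 to 0.148). The list's ileal count was 4 without ileum WT B or with all 42 libraries and 5 without ileum TNFdARE A or ileum WT C or with the 22 gut libraries.

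Type 1 and type 2 lists rose in part. Of 12 type 1 genes, 4 rose in the ileum, Hopx, Id2 and Il18r1 among them, and 2 in the node, with Il12rb1 among them, and the ileal count was 2 without ileum TNFdARE C, with all 42 libraries or with the 22 gut libraries. Tbx21, the lineage factor T-bet, passed at neither site (-0.63 ± 0.25 and 0.22 ± 0.31). Of 9 type 2 genes, 3 rose at each site, with Ccr4 and Il1rl1 in both. Over all genes tested 3.48% rose in the ileum and 1.73% in the node. Areg, the tissue-repair growth factor amphiregulin, rose 4.19-fold in the ileum (2.07 ± 0.24, adjusted p = 0.00051), at 608, 591 and 598 CPM in TNFdARE ileum and 181, 138 and 110.5 CPM in WT ileum, and was below 1 CPM in every node library. Il1rl1, the interleukin-33 receptor, rose 9.2-fold in the ileum (3.2 ± 0.57, adjusted p = 0.00604) and passed in the node, at 3.81 and 2.84 CPM in TNFdARE nodes and 0.0395, 0 and 0.556 CPM in WT nodes (adjusted p = 0.0268). The Il1rl1 node call was lost without any one of mLN WT A, mLN TNFdARE B, mLN WT B or mLN TNFdARE C (adjusted p = 0.0896 to 0.114). The type 2 node count was 0 without mLN TNFdARE C and 1 without mLN TNFdARE B or mLN WT B.

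Co-inhibitory genes rose in 2 of 13 cases and fell in 1 in the ileum, and rose in 4 in the node, a count of 0 without mLN TNFdARE C or with experiments B and C only. Among all genes tested, 3.48% were higher and 2.26% lower in the ileum, and 1.73% were higher in the node. Ctla4, the inhibitory receptor that competes with CD28, rose at both sites, 1.71-fold in the ileum (0.78 ± 0.19, adjusted p = 0.0329) and 2.52-fold in the node (1.33 ± 0.21, adjusted p = 0.00663). These calls were lost without any one of 5 libraries (adjusted p = 0.067 to 0.119) and without mLN TNFdARE C (adjusted p = 0.111). Havcr2, the receptor TIM-3, rose 8.83-fold in the ileum (3.14 ± 0.3, adjusted p = 0.000131), at 69.3, 87.2 and 117 CPM in TNFdARE ileum and 10.1, 8.42 and 12.5 CPM in WT ileum. Of 21 proliferation genes, Tk1 rose and Mcm2 fell in the ileum and none passed in the node, where 5.73% of all genes passed in the ileum. Their median was -0.33 in the ileum, with 16 below 0, and 0.66 in the node, with 20 above 0. The interaction was below 0 for 20 of them, and none passed. Their summed CPM was 424.1 in node library TNFdARE B, 575.5 in TNFdARE C and 409.2 to 441.9 in WT nodes. The Tk1 call was lost without any one of ileum TNFdARE A, ileum WT A, ileum WT B or ileum TNFdARE C (adjusted p = 0.0713 to 0.105), and also without the filter and with all 42 libraries, the 22 gut libraries or experiments B and C only. Of 18 early-response genes, Egr2 fell in the ileum (-0.78 ± 0.15, adjusted p = 0.0105) and none passed in the node, where Fos spanned 12.7 to 285 CPM in TNFdARE and 11.7 to 403 CPM in WT and Jun 15.9 to 334 CPM in TNFdARE and 12.2 to 549 CPM in WT.

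No gene of the T cell, B cell, plasma cell, epithelial, myeloid, CD8 and NK, or stromal lists passed at either site. In the ileum, epithelial genes summed to 23.49 to 177.8 CPM in TNFdARE and 16.86 to 119.2 CPM in WT, and stromal genes to 165 to 292.8 CPM in TNFdARE and 168.7 to 488.4 CPM in WT, with WT B the highest. Plasma cell genes summed to 72.61 to 240.8 CPM in TNFdARE ileum and 153.4 to 189.1 CPM in WT ileum, and to 10.06 to 18.88 CPM in TNFdARE nodes and 1.003 to 7.408 CPM in WT nodes, where the genotypes did not overlap. Myeloid genes summed to 7.242 to 8.589 CPM in TNFdARE ileum and 6.964 to 30.14 CPM in WT ileum, where Lyz2 reached 17.16 CPM in WT A, and to 5.24 to 5.277 CPM in TNFdARE nodes and 2.53 to 4.236 CPM in WT nodes, without overlap. S100a9 had no count in 10 of the 11 libraries. Cd74, the MHC class II invariant chain, rose 3.1-fold in the ileum (1.63 ± 0.37, adjusted p = 0.0236). The Cd74 ileal call was lost without any one of ileum TNFdARE A, ileum WT B or ileum WT C (adjusted p = 0.0611 to 0.0829) and with the 22 gut libraries. The 7 genes of the MHC class II list summed to 104.2 to 135.1 CPM in TNFdARE ileum and 49.3 to 101.8 CPM in WT ileum, and to 102.8 to 111.7 CPM in TNFdARE nodes and 63.82 to 69.5 CPM in WT nodes, without overlap at either site. Cd74 alone, scaled to total counts, was at 99.45, 73.48 and 62.94 CPM in TNFdARE ileum and 48.64, 15.36 and 15.42 CPM in WT ileum. In the ileum 4 of the 7 genes had a fitted change below 0, with a list median of -0.01. In the node all 7 lay above 0, with a median of 1.03, and none passed. The part of other cells in the results above was not tested.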

How the data were processed

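Sorted Tconv of ileum and mesenteric node were profiled by bulk RNA-seq in 11 libraries (of 42). The deposited table holds the authors' raw read counts per Ensembl gene, 46603 genes with no row lacking a gene name. The submitters' processing notes list Bowtie2 2.3.3.1, cutadapt 1.15 and the build GRCm38, and the counting program and annotation release are not given in the sources used here. A second deposited table of FPKM values was not used. Symbols and positions came from GENCODE M21 (46091 of the genes matched). The labels' protocol names no step that marks strand, so a gene and its antisense partner cannot be told apart.

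Counts were fitted with edgeR 4.0.16 (R 4.3.3): 1 mean per genotype and site, TMM scaling, the filterByExpr filter (15868 genes), and the quasi-likelihood F test with Benjamini-Hochberg adjustment. The SE of a log2 fold change is its size divided by the square root of F. Contrasts were the genotype effect at each site, their difference and their mean. CPM of single genes used TMM library sizes, and summed CPM and shares of the Treg level were scaled by the library total. A prior count of 2 went into log2 CPM. The procedure was also run on simulated counts in which all libraries shared the same mean levels apart from the changes put in. That simulation had no difference of level between the sites and none between experiments. It therefore cannot show how the interaction test behaves for genes nearly absent at one site.

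Replicates are named by the experiment letter. The labels do not say that each library came from separate animals, so p-values measure only the spread between these libraries. Deviations of same-letter libraries correlated at -0.0258 to 0.368 (median 0.0448), above 0.1 in 3 of 15 pairs. All 3 were pairs of the genotypes at one site. Such pairs of one letter lay at 0.0768, 0.123 and 0.368 in the ileum and at 0.0957 and 0.148 in the node. Those of unlike letters lay at -0.24 to 0.151 in the ileum and at -0.148 to 0.0624 in the node. These correlations alone do not settle whether the libraries are paired. The letters mark independent experiments per the series' design and the titles, so the fit with the letter as a block is given where it changes a call.

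The members and gene lists were chosen with earlier results of these data known. Named genes (89) were Tnf, Foxp3, Klrg1, Il17a and Ifit3, then the strongest genes with a mean log2 CPM of at least 3: up to 10 per direction of the interaction, 8 per direction passing at both sites, 6 per direction at each site, and up to 3 per list. The 6 per direction at each site came only from genes whose libraries did not overlap between the genotypes there. For genes chosen so, a lack of overlap at that site is no separate result. Predicted genes, pseudogenes, receptor segments and sex-linked genes were left out. Other list genes given with values were chosen after their values were seen. Alternatives were DESeq2 1.42.0, RLE scaling, limma 3.58.1 voom with quality weights, no filter beyond 1 count, the replicate block, all 42 or the 22 gut libraries, experiments B and C only, and each library left out. A few genes are counted in the totals and are not reported here by name.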

Additional observations from a re-analysis of the deposited data

Results flagged for a closer look

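The genotype effect of the following genes differed between ileum and node by the test of that difference (edgeR's quasi-likelihood test, adjusted p below 0.05). The value given is the log2 fold change of TNFdARE over WT in the ileum minus that in the node. It was positive, that is more toward higher in the ileum, for Cd86 2.52, Tent5a 2.27, Penk 2.14, Ly6a 1.96, Gbp6 1.89, Tnfrsf9 1.88, Padi2 1.6, Ikzf4 1.58, Lgals3bp 1.58, Ccr8 1.53, Gbp7 1.23, Tgtp2 1.13, Ifi27l2a 0.91 and Ltb 0.83. It was negative for Tcf7 -0.73, Actn1 -0.83, Lef1 -0.86, Slamf6 -0.89, Izumo1r -1.21, Hic1 -1.62, Igfbp4 -1.88, Coro2a -1.88, Casp4 -1.92, Tox2 -1.94, Il21 -2.08, Fgl2 -2.08, Gpr83 -2.15, Myo6 -2.45, Sostdc1 -3.28 and Gzmb -3.55. Of these, Gpr83, Il21, Myo6 and Tent5a passed whichever library was left out, but Il21 was lost with all 42 libraries and with the 22 gut libraries, and Myo6 with all 42.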

How the results depend on the processing

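The count of genes past the interaction test (99) was 394 with DESeq2, 220 with no filter beyond 1 count, 182 with the replicate block, 26 with all 42 libraries, 38 with the 22 gut libraries and 21 with experiments B and C only. It was 8 to 111 with 1 library left out: 8 without mLN TNFdARE C, 13 without mLN WT A, 33 without mLN WT B, 59 without ileum WT C, 63 without ileum TNFdARE B and 64 without ileum WT A. The ileum count (910) was 1491, 256, 384 and 434 with DESeq2, all 42, the 22 gut libraries and experiments B and C, and 529 to 962 with 1 library left out (529 without ileum WT C). In the same order the node count (334) was 635, 121, 208 and 128, and 87 to 352 with 1 left out (87 without mLN TNFdARE C, 187 without mLN WT B, 209 without mLN WT A). The count at both sites (137) was 274, 50, 85 and 56, and 52 to 150 (52 without mLN TNFdARE C, 84 without mLN WT B). The count of the mean effect (900) was 1416, 309, 480 and 573, and 480 to 971 (480 without mLN TNFdARE C). The cause was not tested. RLE scaling gave 914, 332 and 97 genes in ileum, node and interaction, and voom with quality weights 942, 351 and 110. The replicate block gave 1196 in the ileum and 409 in the node, and of the named calls it lost 1 of 61 in the node and 1 of 74 in the mean effect, and none of the 73 in the ileum and 31 in the interaction. The lost calls were Myo6 in the node and Hic1 in the mean effect (adjusted p = 0.0696). With the block Ifit3 and Il17a in the ileum and Il17a and Tnf in the interaction came to pass, and no other named call changed.

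The Klrg1 interaction (0.17, not past) changed sign with voom (-1.09), the replicate block (-0.076), and without ileum TNFdARE A (-0.26), ileum WT C (-0.02) or mLN WT C (-0.74); with 1 library left out it ran from -0.74 to 0.74. Tnf in the ileum, also not past, was at -0.037 without ileum WT C and at up to 0.23 (without ileum WT A). With 2 TNFdARE node libraries, leaving one out leaves a single library, which is assumed to vary like the others. Of the named calls, 61 of 73 in the ileum, 21 of 61 in the node and 4 of 31 in the interaction passed whichever library was left out. Of the 61 node calls, 35 were lost without mLN TNFdARE C.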

Other observations

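Of the 99 genes past the interaction test, 11 (11.1%) lay on chromosome 9, which holds 5.59% of the genes tested. Of the 125 genes that passed at both sites without passing in the interaction, 18 (14.4%) lay on chromosome 1, which holds 6.86% of the genes tested. Both chromosomes were picked after the counts were seen, and no test was made.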
